A study of Mus musculus with 21 samples.

Results

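Nodal, its co-receptor Tdgf1 (Cripto), the transcription factor Foxh1 and the secreted antagonists Lefty1, Lefty2 and Cer1 were followed through 21 RNA-seq libraries of mouse embryoid bodies, aggregates of differentiating embryonic stem cells. The 6 genes were chosen by name as the ligand, co-receptor, nuclear mediator and extracellular inhibitors of Nodal signalling, out of the 48321 gene symbols counted, and all 6 passed the filter on low counts that kept 14311 genes for testing. All lines derive from A2loxCre cells, labelled as strain C57BL/6, in which a coding sequence is integrated downstream of a promoter switched on by doxycycline. All bodies were harvested on day 3 of differentiation in medium with serum, and each of the 7 groups holds 3 libraries. The parental group is A2loxCre without an insert, treated with doxycycline. The uninduced monomer group carries the TWIST1 monomer and received no doxycycline, and the induced monomer group is the same genotype with doxycycline. The remaining groups carried either the TWIST1 homodimer or a dimer of TWIST1 with TCF3, with TCF4 or with TCF12, all with doxycycline, and proteins were induced for 16 h before collection. TWIST1 belongs to the basic helix-loop-helix factors, which contact DNA in pairs, and TCF3, TCF4 and TCF12 are its E-protein partners. The number of clones behind each line is not given in the sources used here. Nothing in the labels says that the 3 libraries of a group came from separate cultures. The p-values therefore measure the spread between these libraries, pooled over all 7 groups and not only those compared. The doxycycline-treated parental line was the main control, and all 6 comparisons with it share its 3 libraries. Only the monomer line had an uninduced group. For the dimer lines, differences between lines and effects of induction therefore cannot be told apart. The uninduced monomer and parental groups differ in both insert and doxycycline.

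Nodal is a secreted TGF-beta family ligand that, in the early mouse embryo, patterns the epiblast and drives formation of the primitive streak, mesoderm and definitive endoderm. It signals through activin receptors together with an EGF-CFC co-receptor such as Cripto, the product of Tdgf1, and phosphorylated SMAD2 and SMAD3 then act with FOXH1 at target genes. Among those targets are Nodal itself and its inhibitors Lefty1 and Lefty2, which block the ligand and co-receptor, while the Cerberus protein encoded by Cer1 binds Nodal outside the cell. Nodal, Lefty1 and Cer1 are also known from the visceral endoderm, the extraembryonic layer around the epiblast.

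Total counts per library ran from 6648842 to 15999693, so that 3 counts, taken as the smallest abundance a library can show, correspond to 0.188 to 0.451 CPM (counts scaled to a common library total). Twist1 was at 8.11 ± 0.79 CPM (mean ± SD, n = 3 here and below) without an insert and between 39.4 ± 2.9 and 613 ± 31.6 CPM in the 5 induced lines, and Tcf4 was raised in the TCF4 dimer line (330.4 ± 22.6 against 47.5 ± 7.3 CPM). The induced lines thus differ in Twist1 level, and the comparisons between them make no adjustment for it. Tcf3 was 154.2 ± 4.5 CPM under the TCF3 label and 167.2 ± 5.9 CPM in parental libraries (adjusted p = 0.239), and Tcf12 ranged from 53.2 to 117.7 CPM under the TCF12 label against 66.1 ± 3.0 CPM in parental libraries (adjusted p = 0.0548). Tcf12 was as high under the TCF3 label, at 104.3 ± 14.7 CPM (adjusted p = 0.0119), and was at 90.4 ± 4.8 CPM in the TCF4 dimer line (adjusted p = 0.132). The TCF3 and TCF12 groups are therefore called by their labels below. Each library was set against the mean of the other 2 of its group over 9183 genes. Samples 1, 2 and 3 labelled TCF12 dimer had root mean square log2 deviations of 0.724, 0.317 and 0.434. The 18 libraries of the other groups had 0.101 to 0.197. Sample 1 stood farthest apart. It is part of the reference for samples 2 and 3, so their values do not show that these 2 differ from each other. Results that change without one of the libraries labelled TCF12 dimer are given both ways. Epiblast and formative markers summed to 3845 to 3996 CPM in the parental libraries and to 1761 to 3378 CPM in all others. They were lowest in the libraries labelled TCF3 dimer, at 1761 to 1966 CPM. Their part in the levels of the 6 genes was not tested. Counts are read per symbol in whole bodies, so fewer cells of a type and less RNA per cell cannot be told apart.

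The promoter sequences show what DNA the basic helix-loop-helix proteins could read next to these genes, since such dimers bind E-boxes (CANNTG, the same on both strands). The RefSeq promoter table (GRCm38.p6) held 3 of the 6 genes, and the 250 bases before each transcription start are printed 5′ to 3′ on the gene's strand with E-boxes in capitals. The windows are chr10:61417722-61417971 (plus strand) for Nodal, chr9:110946159-110946408 (minus strand) for Tdgf1 and chr4:82885152-82885401 (minus strand) for Cer1.
Nodal: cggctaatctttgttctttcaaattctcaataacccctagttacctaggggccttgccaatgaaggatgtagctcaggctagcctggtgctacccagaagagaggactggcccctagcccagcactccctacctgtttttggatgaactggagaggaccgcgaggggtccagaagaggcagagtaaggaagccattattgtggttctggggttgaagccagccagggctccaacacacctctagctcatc
Tdgf1: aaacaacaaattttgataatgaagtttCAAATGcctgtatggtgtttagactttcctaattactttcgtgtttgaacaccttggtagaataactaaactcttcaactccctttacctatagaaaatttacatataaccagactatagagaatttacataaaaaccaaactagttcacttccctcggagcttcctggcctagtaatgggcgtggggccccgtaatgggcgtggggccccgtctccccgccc
Cer1: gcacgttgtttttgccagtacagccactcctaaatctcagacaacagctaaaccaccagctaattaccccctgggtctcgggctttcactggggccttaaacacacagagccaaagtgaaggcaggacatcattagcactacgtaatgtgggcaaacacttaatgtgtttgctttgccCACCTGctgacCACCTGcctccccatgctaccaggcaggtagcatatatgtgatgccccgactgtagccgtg
The Nodal window holds 0 E-boxes, the Tdgf1 window 1 (CAAATG, starting 223 bases before the start) and the Cer1 window 2 (both CACCTG, starting 72 and 61 bases before it). Of 32851 promoter windows of this length, 66.2% hold at least 1 E-box and 31.8% hold 2 or more. The FOXH1 motif TGTGNATT (AATNCACA on the other strand) was not found in these 3 windows and is in 3.18% of all windows. These matches describe the letters in these windows and no binding was measured here.

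Lefty1 and Lefty2 lie side by side on chromosome 1, and their similarity bears on how far their counts can be separated. In GENCODE M21 (GRCm38) Lefty1 spans chr1:180935022-180938400 and Lefty2 chr1:180893108-180899103, both on the plus strand. Their coding sequences are 1107 bases each and identical at 1017 aligned bases (91.87%), and 7.24% of the 100-base words of Lefty2 also occur in Lefty1. Over the whole transcripts, UTRs included, 82.75% of aligned bases are identical and 3.07% of such words are shared. Reads inside shared words can be given to either gene or dropped, depending on counting settings that are not given in the sources used here. Differences between the 2 Lefty genes are therefore uncertain where noted. The other 4 genes are Nodal at chr10:61417972-61425338 (plus strand), Tdgf1 at chr9:110939603-110946158 (minus), Cer1 at chr4:82881751-82885148 (minus) and Foxh1 at chr15:76668225-76669948 (minus). Tdgf1 has a pseudogene, Tdgf1-ps1, that matches it at 506 of 513 aligned bases (98.64%) and whose counts were 2.68% to 5.08% of those of Tdgf1.

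Against the parental line Nodal, Tdgf1 and Cer1 were lower in all 6 other groups, whereas the Lefty genes went up in some lines and down in others. Among the uninduced monomer libraries 1 of the 6 genes rose and 4 fell, where 10.5% of all tested genes rose and 9.43% fell, 19.9% in either direction (edgeR quasi-likelihood test, Benjamini-Hochberg adjusted p under 0.05). In the induced monomer line 1 rose and 4 fell, where 10.8% of all genes rose and 9.22% fell (20.0% together). For the homodimer 0 rose and 4 fell, against 4.81% and 4.02% of all genes (8.84% together). In the TCF4 dimer line 0 rose and 5 fell, against 7.18% and 5.67% (12.9% together). For the libraries labelled TCF3 dimer these counts were 0 and 5, against 16.3% and 12% (28.3% together), and for those labelled TCF12 dimer 0 and 5, against 15.5% and 11.5% (27.0% together). The median log2 fold change of the 6 genes went from -0.27 in the uninduced monomer line and -0.33 in the induced one to -1.53 in the TCF4 dimer line, while the median over all tested genes stayed between 0.00 and 0.02 in all 6 comparisons. Without sample 1 labelled TCF12 dimer, the members passing numbered 6, 5, 4, 5, 5 and 6 in the order uninduced monomer, induced monomer, homodimer, TCF3, TCF4 and TCF12. The number of all genes passing then rose by more than 1.5 times in the first 5 of these comparisons, from 2854 to 5312, 2861 to 5073, 1265 to 2948, 4057 to 6700 and 1839 to 4046. Without sample 3 labelled TCF12 dimer, 6165 genes instead of 3864 passed in the TCF12 comparison. With only the TCF12-labelled and parental groups fitted, 824 genes passed there.

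**Figure D1:**
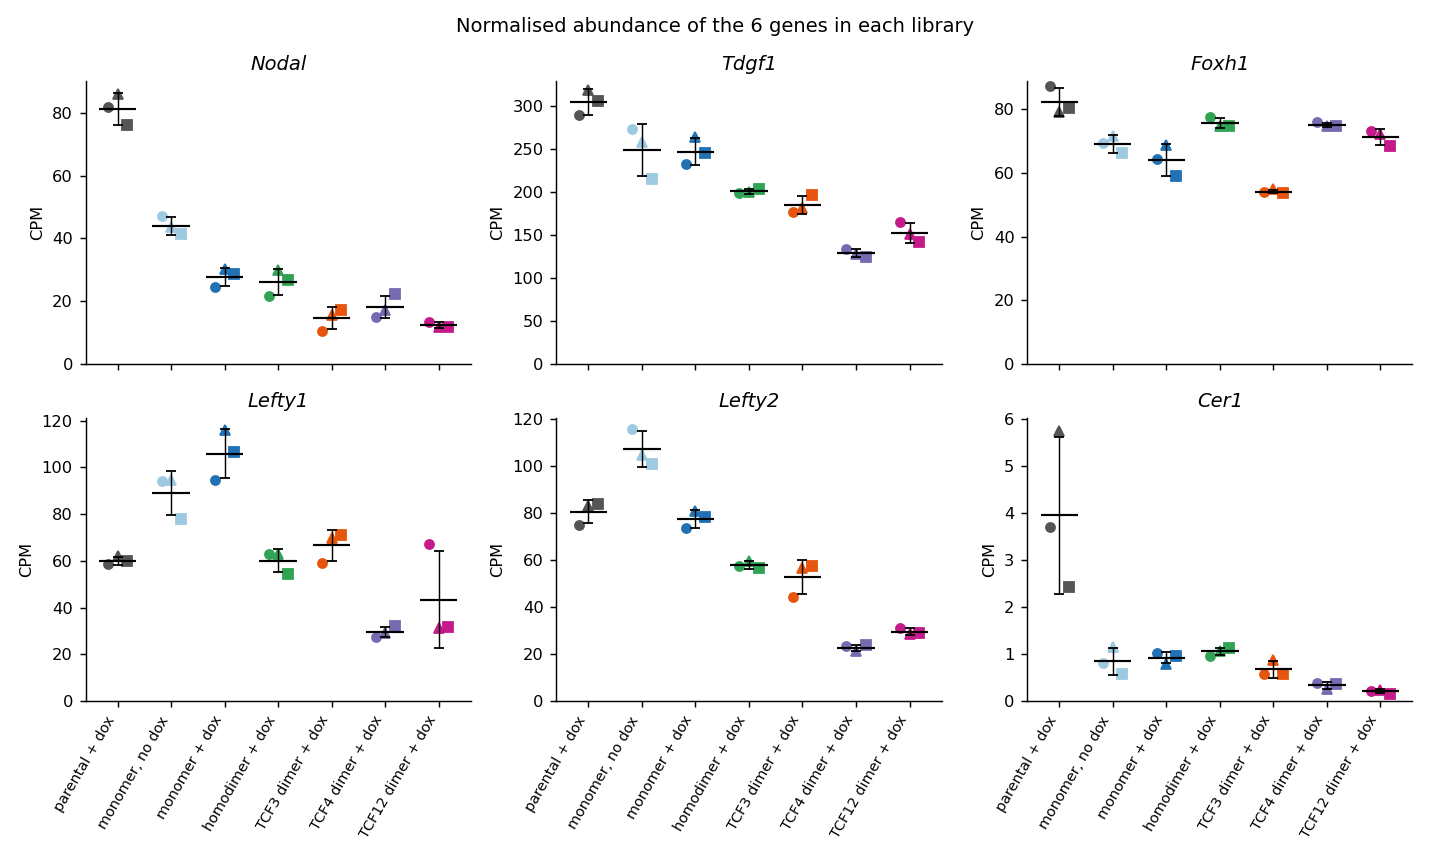
Level of each gene (y axis, CPM) in every library by group (x axis), with replicates 1, 2 and 3 as circle, triangle and square, the group mean as a line and the SD as a bar. Nodal lies at 76.0 to 86.1 CPM in the parental libraries and at or below 47.0 CPM in all others, while Lefty1 is highest in the induced monomer line.

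Nodal, the ligand, fell in steps from the parental line to the E-protein dimers. In the parental libraries it was at 81.8, 86.1 and 76.0 CPM, and in the uninduced monomer libraries at 47.0, 43.6 and 41.4 CPM. In the induced monomer libraries it was at 24.6, 30.3 and 28.5 CPM. These 3 groups did not overlap, and each step down was larger than the spread within a group. The homodimer libraries had 21.6, 29.8 and 26.7 CPM, which overlapped the induced monomer. Nodal was at 15.0, 17.2 and 22.1 CPM in the TCF4 dimer line, at 10.6, 15.7 and 17.2 CPM in the libraries labelled TCF3 dimer, and at 13.3, 11.7 and 11.9 CPM in those labelled TCF12 dimer. From the induced monomer down, each group in this order overlapped the next, so neighbouring ranks there are not separated. The log2 fold change against the parental line was -0.89 ± 0.15 (SE) in the uninduced monomer line, with an adjusted p of 0.000283. With doxycycline it was -1.55 ± 0.15 for the monomer, -1.64 ± 0.15 for the homodimer and -2.16 ± 0.16 for the TCF4 dimer, and -2.48 ± 0.16 and -2.73 ± 0.16 in the libraries labelled TCF3 and TCF12 dimer, all 5 passing with adjusted p of at most 5.26e-07. The last of these is a 6.61-fold lower level. The summed level of 6 primitive streak markers (T, Mixl1, Eomes, Evx1, Wnt3 and Fgf8) moved alongside: it was 208 to 244 CPM in the parental libraries and 15.3 to 40.7 CPM in the 18 others. None of these markers was at 0 in any group, and their part in the Nodal level was not tested.

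Within the monomer line, the libraries with doxycycline had less Nodal than those without, by -0.66 ± 0.16 on the log2 scale (adjusted p = 0.0309), a 1.58-fold difference with no overlap. This was 1 of 2 members called, both lower, with Lefty2 at -0.46 ± 0.09 (adjusted p = 0.00611), where 1.52% of all tested genes were higher and 0.475% lower (2.00% together). The Nodal call in this comparison depended on which libraries were fitted. It no longer passed when any 1 of the 6 monomer libraries was left out (log2 fold change -0.73 to -0.58, adjusted p from 0.0582 to 0.186), and no member passed without uninduced sample 1. Without sample 1 labelled TCF12 dimer, Nodal was at -0.66 (adjusted p = 0.000521) and Lefty2 at -0.46 (adjusted p = 4.44e-05). With the Lefty counts summed, Lefty1 and Lefty2 together were at -0.10 (adjusted p = 0.999). The number of all genes passing also depended on 1 library, falling from 286 to between 173 and 185 without uninduced sample 1 or 2 or induced sample 1 or 3, and rising to 890 without sample 1 labelled TCF12 dimer. The remaining 4 members did not pass, with 95% intervals of -0.19 to 0.17 for Tdgf1, -0.25 to 0.03 for Foxh1, -0.16 to 0.66 for Lefty1 and -0.71 to 0.96 for Cer1.

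Tdgf1, the membrane-anchored co-receptor that lets Nodal engage the activin receptors, was the most abundant of the 6 genes. It was at 289, 319 and 306 CPM in the parental libraries, at 274, 258 and 215 CPM in the uninduced monomer line and at 232, 263 and 245 CPM in the induced monomer line. The monomer groups overlapped each other and lay below the parental line. The homodimer libraries were close together at 199, 200.0 and 204 CPM. Tdgf1 was at 176, 181 and 197 CPM in the libraries labelled TCF3 dimer, at 165, 151 and 141 CPM in those labelled TCF12 dimer and at 133, 128 and 125 CPM in the TCF4 dimer line. From the induced monomer downward no group overlapped its neighbour in this order. Against the parental line the log2 fold change was -0.29 ± 0.08 for the uninduced monomer and -0.30 ± 0.08 for the induced one (adjusted p = 0.0173 and 0.0136). Both of these small changes missed the threshold when parental sample 2 was left out (adjusted p = 0.0708 and 0.0557), the first also without uninduced sample 3 (0.1) and the second without induced sample 1 (0.062). The change was -0.60 ± 0.08 with the homodimer, -0.72 ± 0.08 and -1.0 ± 0.08 in the libraries labelled TCF3 and TCF12 dimer, and -1.24 ± 0.08 in the TCF4 dimer line, where the level was 2.37-fold lower (adjusted p = 5.16e-09). Tdgf1-ps1 followed with -1.22 ± 0.18 in the TCF4 dimer line, but reads in the stretches they share can belong to either gene.

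Foxh1, the forkhead factor that carries the SMAD complex to Nodal target genes, varied within a narrow range. It was at 87.2, 79.1 and 80.4 CPM in the parental libraries, and its lowest group was that labelled TCF3 dimer at 53.9, 54.8 and 53.8 CPM. These TCF3-labelled libraries lay below every other library. Foxh1 was at 77.5, 74.7 and 74.8 CPM in the homodimer line and at 75.9, 74.8 and 74.8 CPM in the TCF4 dimer line, both below all parental libraries but not passing the test (log2 fold changes -0.12 and -0.13, adjusted p = 0.338 and 0.236, 95% intervals -0.26 to 0.02 and -0.27 to 0.01). In the remaining groups it was at 73.1, 72.3 and 68.4 CPM (labelled TCF12 dimer), 69.5, 71.6 and 66.2 CPM (uninduced monomer) and 64.3, 68.9 and 59.0 CPM (induced monomer), an order in which neighbours overlapped. It fell by 0.60 ± 0.07 on the log2 scale under the TCF3 label (adjusted p = 1.07e-06) and by 0.36 ± 0.07 in the induced monomer line. The changes of -0.25 ± 0.07 for the uninduced monomer and -0.21 ± 0.07 under the TCF12 label passed (adjusted p = 0.00985 and 0.0258), but neither did without parental sample 1 (0.0647 and 0.119), nor with no filter on low counts (0.128 and 0.252). With only the compared groups fitted, the change under the TCF12 label did not pass either (adjusted p = 0.325).

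Lefty1, a secreted inhibitor that Nodal signalling itself induces, was higher in the monomer lines and lower in the TCF4 dimer line. It was at 58.5, 61.9 and 59.9 CPM in the parental libraries, at 94.4, 94.4 and 78.0 CPM in the uninduced monomer line and at 94.8, 116 and 107 CPM in the induced monomer line. The parental libraries lay below all monomer libraries. Lefty1 was at 62.9, 63.0 and 54.3 CPM in homodimer libraries and at 59.0, 69.8 and 71.0 CPM in TCF3-labelled ones, both overlapping the parental range. It was at 27.5, 29.2 and 32.0 CPM in the TCF4 dimer line. The libraries labelled TCF12 dimer had 67.4, 31.3 and 31.6 CPM, so sample 1 lay above the parental range while samples 2 and 3 lay in the TCF4 range. Lefty1 rose by 0.81 ± 0.20 on the log2 scale in the induced monomer line (adjusted p = 0.0056) and fell by 1.02 ± 0.20 in the TCF4 dimer line (adjusted p = 0.0017). In the uninduced monomer line the value was 0.56 ± 0.20 (adjusted p = 0.0532), which passed when any 1 of the 3 libraries labelled TCF12 dimer was left out (0.55, 0.56 and 0.55, adjusted p = 3.29e-06, 0.0306 and 0.0292) and also with DESeq2 (0.55, adjusted p = 0.0459). In the libraries labelled TCF12 dimer it was -0.48 ± 0.20 (adjusted p = 0.0823), and -0.94 ± 0.10 without sample 1 (adjusted p = 8.81e-09). It also passed with library size only (-0.59, adjusted p = 0.016). The homodimer line and the libraries labelled TCF3 dimer gave -0.00 and 0.15, with 95% intervals of -0.42 to 0.42 and -0.27 to 0.56.

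Lefty2, the neighbouring inhibitor, shared only part of this pattern. It was at 75.1, 83.0 and 83.9 CPM in the parental libraries and at 116, 105 and 101 CPM in the uninduced monomer line, with no overlap, but at 73.5, 81.1 and 78.2 CPM in the induced monomer line, within the parental range or just under it. Homodimer libraries had 57.4, 59.6 and 56.5 CPM and TCF3-labelled ones 44.5, 56.8 and 57.6 CPM, which overlapped each other. The libraries labelled TCF12 dimer had 31.2, 28.7 and 29.0 CPM and the TCF4 dimer line 23.3, 21.2 and 23.7 CPM. Unlike for Lefty1, the 3 libraries labelled TCF12 dimer were close together. Lefty2 rose by 0.41 ± 0.09 on the log2 scale in the uninduced monomer line (adjusted p = 0.00265) and gave -0.06 ± 0.09 in the induced one (adjusted p = 0.755, 95% interval -0.24 to 0.13). It fell by 0.48 ± 0.09 with the homodimer, by 0.61 ± 0.09 and 1.45 ± 0.09 in the libraries labelled TCF3 and TCF12 dimer, and by 1.82 ± 0.09 in the TCF4 dimer line, a 3.54-fold lower level (adjusted p = 1.73e-10). With the counts of both Lefty genes summed, the log2 fold change was 0.48 (adjusted p = 0.0201) without and 0.38 (adjusted p = 0.0632) with doxycycline in the monomer line. The sum gave -0.26 and -0.24 in the homodimer and TCF3-labelled groups, where it did not pass (adjusted p = 0.349 and 0.238), and passed at -1.43 and -0.95 in the TCF4 and TCF12-labelled groups (adjusted p = 9.86e-07 and 6.44e-05).

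**Figure D2:**
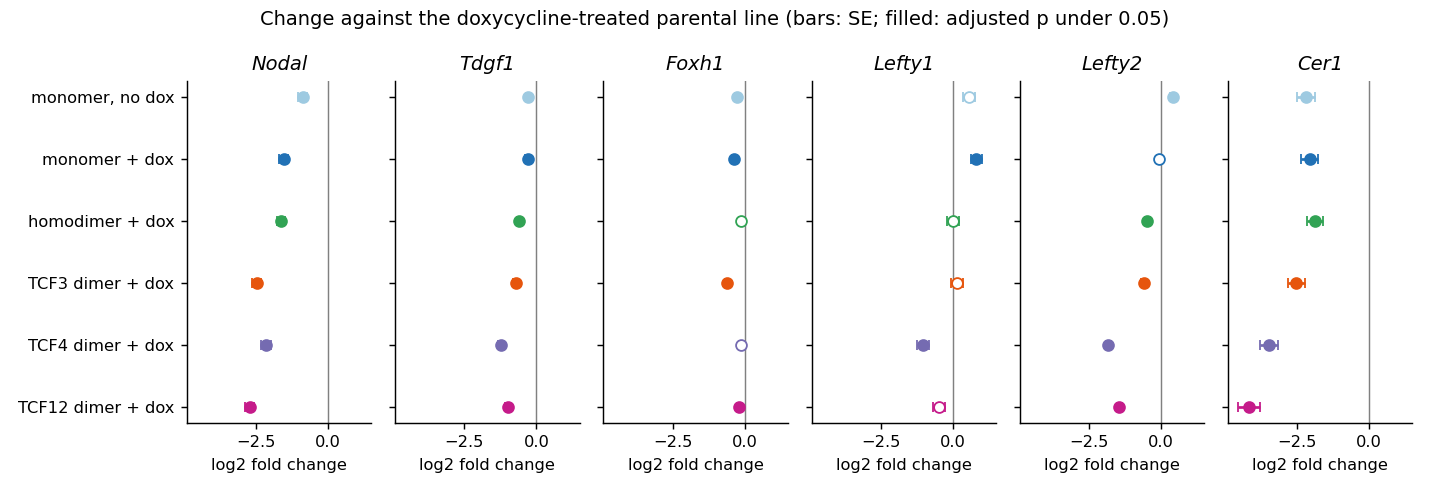
Log2 fold change against the parental line (x axis, bars ± SE) for each gene (panels) in the 6 other groups (y axis), filled where the adjusted p is under 0.05. Nodal, Tdgf1 and Cer1 lie left of 0 in all 6 groups, whereas Lefty1 runs from 0.81 in the induced monomer line to -1.02 in the TCF4 dimer line.

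Summed markers of the primitive or visceral endoderm (Gata4, Gata6, Sox17, Sox7, Dab2, Amn, Ttr, Afp, Apoa1 and Cubn) were highest in the monomer lines and lowest in the TCF4 and TCF12-labelled groups. Their sum was 330 to 369 CPM in the parental libraries, 1316 to 1658 CPM for the uninduced monomer and 1301 to 1441 CPM for the induced one, and 623 to 894 CPM in the libraries labelled TCF3 dimer. It was 215 to 258 CPM in the homodimer line, and 154 to 163 and 154 to 179 CPM in the TCF4 and TCF12-labelled groups. None of the 10 genes was at 0 in any group, and 7 of the 9 tested rose in each monomer group. The sum of 8 naive pluripotency markers was also highest in the monomer lines, with 511 to 537 CPM in the uninduced monomer line, 396 to 461 CPM in the induced one, 177 to 228 CPM in the parental libraries and 130 to 152 CPM in the TCF4 dimer line. Mesoderm markers (Hand1, Kdr, Mesp1, Tbx6 and Msgn1) had another order, and the TCF3-labelled group was above the parental range for both endoderm and mesoderm markers. Mesoderm sums were 2.71 to 5.65 CPM in the parental libraries and 2.51 to 3.60 CPM in the monomer and homodimer lines. They were 16.2 to 24.6, 8.21 to 10.7 and 18.5 to 22.9 CPM in the TCF3, TCF4 and TCF12 groups. These 3 groups had the least Nodal. Hand1 and Kdr, the 2 tested, rose in these 3 groups and passed in none of the others. Kdr, a receptor of early mesoderm and endothelium, averaged 2.17 ± 0.97 CPM in parental libraries and 15.4 ± 2.1, 5.85 ± 0.78 and 9.85 ± 3.7 CPM there, while Msgn1 was at 0 in every group. Within the TCF12-labelled group, sample 1, the library with the high Lefty1 value, had 20.7 CPM of the endoderm marker Amn against 7.38 and 6.30 CPM in samples 2 and 3, and 5.25 CPM of the naive marker Tfcp2l1 against 8.45 and 12.1 CPM. These are single markers of each list. Over the whole lists, the libraries of this group summed to 154 to 179 CPM for endoderm and 133 to 143 CPM for naive markers. The part of these cell types in the Nodal, Lefty1 and Lefty2 levels was not tested.

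Cer1, which encodes the secreted Nodal and BMP antagonist Cerberus, had few counts everywhere and its largest values in the parental libraries. These held 34, 53 and 24 counts (3.71, 5.75 and 2.42 CPM), 111 in all. The other groups held 7 to 32 counts over their 3 libraries, all below the lowest parental library at no more than 1.15 CPM. Summed counts per total were 4.85-fold higher in the parental line than in the uninduced monomer line (95% exact interval for counting error 3.05 to 8.05). They were 11.4-fold higher than in the TCF4 dimer line (14 counts, interval 6.50 to 21.5). Against the libraries labelled TCF12 dimer, which held 2, 3 and 2 counts, the ratio was 20.0 with an interval of 9.40 to 51. The intervals hold counting error alone, since no molecular identifiers separate amplified copies. The fitted log2 fold changes passed in all 6 groups, at -2.20 ± 0.31, -2.07 ± 0.30, -1.88 ± 0.28, -2.53 ± 0.30, -3.48 ± 0.33 and -4.19 ± 0.38 in the order uninduced monomer, induced monomer, homodimer, TCF3, TCF4 and TCF12. In the middle of the order (homodimer, induced monomer, uninduced monomer and TCF3-labelled) neighbouring groups overlapped, and the TCF4 and TCF12-labelled groups, with 5, 3 and 6 and with 2, 3 and 2 counts, lay near or under the 3-count floor.

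Per kilobase of exon, Tdgf1 was the most abundant member in the parental line at 116 CPM per kb, followed by Foxh1 at 60.3, Nodal at 38.8, Lefty1 at 34.2, Lefty2 at 30.9 and Cer1 at 2.28 CPM per kb. In the libraries labelled TCF12 dimer Nodal was at 5.87 CPM per kb, below Lefty2 at 11.3 and Foxh1 at 52.2 CPM per kb. On this per-length scale Nodal thus exceeded Lefty1 and Lefty2 in the parental line and was below Lefty1 in all 6 other groups. Ratios of counts taken within each library, which need no scaling between libraries, show the same shift in balance. The count ratio of Lefty1 to Nodal was 0.716 to 0.789 in the parental libraries, 1.88 to 2.17 in the uninduced monomer line and 3.75 to 3.86 in the induced one. It was 2.03 to 2.92 in the homodimer line, 4.12 to 5.58 in the libraries labelled TCF3 dimer and 1.45 to 1.83 in the TCF4 dimer line. It was 2.66 to 5.06 in the libraries labelled TCF12 dimer, with the high value in sample 1. All libraries outside the parental group had a higher ratio than all parental libraries. The count ratio of Lefty2 to Nodal was 0.919 to 1.10 in the parental libraries and 2.00 to 4.20 in all other groups except the TCF4 dimer line, where it was 1.07 to 1.55 and overlapped the parental range. Tdgf1 to Nodal was 3.54 to 4.03 in the parental libraries and 11.4 to 16.6 and 11.9 to 12.9 in those labelled TCF3 and TCF12 dimer. Lefty1 to Lefty2 was 0.715 to 0.779 in the parental line, 0.773 to 0.899 in the uninduced monomer line and 1.29 to 1.43 in the induced monomer line. That ratio reads the 2 similar genes against each other and carries the uncertainty given above.

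**Figure D3:**
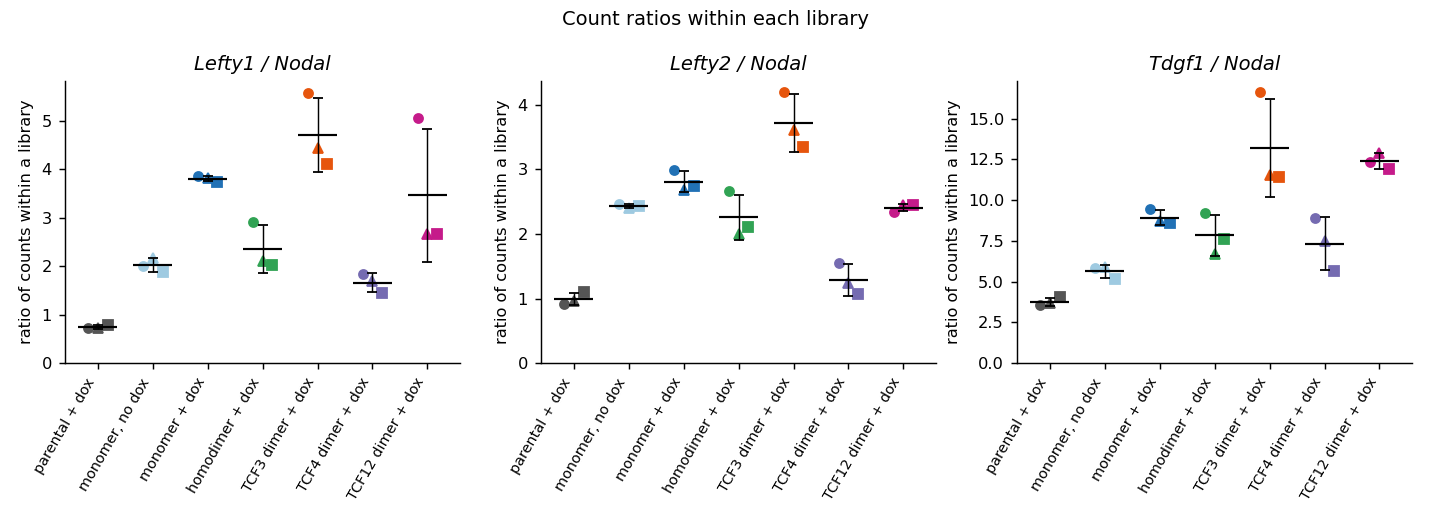
Count ratios Lefty1/Nodal, Lefty2/Nodal and Tdgf1/Nodal (y axis) within each library, by group (x axis), with replicates 1, 2 and 3 as circle, triangle and square, the group mean as a line and the SD as a bar. The parental libraries have the lowest Lefty1/Nodal ratios, 0.716 to 0.789, and the libraries labelled TCF3 dimer reach 5.58.

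The labels give the TWIST1 monomer as the reference for the dimers, and these comparisons share the 3 induced monomer libraries. Every dimer group had less Lefty1 and Lefty2 than the induced monomer line. With the homodimer 1 member rose and 3 fell where 9.15% of all genes rose and 9.31% fell (18.5% together). Foxh1 rose by 0.24 ± 0.07, while Tdgf1 fell by 0.30 ± 0.08, Lefty2 by 0.42 ± 0.09 and Lefty1 by 0.82 ± 0.20. Nodal did not pass there (-0.09, 95% interval -0.42 to 0.24). Without induced monomer sample 3 the members passing were 2, since Tdgf1 and Foxh1 then missed the threshold (adjusted p = 0.0524 and 0.0759). Tdgf1 also missed it without induced monomer sample 2 or homodimer sample 1 or 2. With no filter on low counts, Tdgf1 and Foxh1 missed it as well (adjusted p = 0.0605 and 0.161). In the libraries labelled TCF3 dimer 5 members fell and 0 rose, where 12.7% of all genes rose and 9.36% fell (22.1% together), by 0.24 (Foxh1) to 0.94 (Nodal). Lefty1 and Foxh1 did not pass there without induced monomer sample 2 or TCF3-labelled sample 1, leaving 3. Lefty1 also missed the threshold without induced monomer sample 3 (adjusted p = 0.0519). Foxh1 also missed it without TCF3-labelled sample 3 (0.0562), with library size only (0.0868) and with no filter on low counts (0.204). In the TCF4 dimer line all 6 passed, where 14.5% of all genes rose and 13.0% fell (27.4% together). Foxh1 rose by 0.23 ± 0.07 and the remaining 5 fell, led by Lefty1 at -1.84 ± 0.20 and Lefty2 at -1.77 ± 0.09. Cer1 (-1.41) did not pass there without induced monomer sample 1 or 3 or TCF4 sample 2. Foxh1 did not pass without induced monomer sample 3 (0.18, adjusted p = 0.0692), which left 4 members, or with no filter on low counts (0.25, adjusted p = 0.115). In the libraries labelled TCF12 dimer 5 fell and 0 rose, where 18.1% of all genes rose and 15.5% fell (33.5% together), with Cer1 at -2.11 ± 0.50, Lefty2 at -1.39 ± 0.09, Lefty1 at -1.29 ± 0.20, Nodal at -1.18 ± 0.17 and Tdgf1 at -0.70 ± 0.08. Lefty1 was at -1.74 ± 0.10 without sample 1. Outside the TCF12 comparison, leaving out that library left these member counts as they were, while all genes passing numbered 4803, 5896 and 6561 in the homodimer, TCF3 and TCF4 comparisons against 2642, 3162 and 3928 with it. The TCF3 comparison also fell to 2066 genes without TCF3-labelled sample 1.

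The E-protein dimers as a class, taken as the mean of the 3 group means, had lower levels of 5 members and higher levels of 0 than the homodimer line, where 7.99% of all genes were higher and 6.04% lower (14.0% together). Cer1 was lower by -1.52 ± 0.33, Nodal by -0.82 ± 0.13 and Lefty2 by -0.81 ± 0.07, and Tdgf1 and Foxh1 by -0.39 ± 0.07 and -0.19 ± 0.05. Lefty1 was at -0.45 ± 0.16 (adjusted p = 0.0701), and at -0.61 ± 0.07 without sample 1 labelled TCF12 dimer (adjusted p = 6e-08). Without that library 4173 genes passed in place of 2007, and 1305 passed without homodimer sample 2. The Foxh1 call ended without homodimer sample 1 (adjusted p = 0.0922), with no filter on low counts (0.243) and with only the compared groups fitted (0.0509). By level, Foxh1 was at 53.8 to 54.8 CPM in the TCF3-labelled libraries against 74.7 to 77.5 CPM in the homodimer line, while the TCF4 dimer libraries (74.8 to 75.9 CPM) lay within the homodimer range. Lefty2 in the TCF3-labelled libraries (44.5 to 57.6 CPM) overlapped the homodimer range (56.5 to 59.6 CPM), and Lefty1 averaged 66.6 against 60.1 CPM. Nodal in the TCF4 dimer line (15.0 to 22.1 CPM) also overlapped the homodimer range (21.6 to 29.8 CPM).

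Among the E-protein dimers, the TCF3-labelled libraries had more Lefty1 and Lefty2 than the TCF4 line. Lefty2 was higher in the TCF3-labelled libraries by 1.22 ± 0.09 on the log2 scale, Lefty1 by 1.17 ± 0.20 and Tdgf1 by 0.52 ± 0.08, and Foxh1 was lower by -0.47 ± 0.07, so that 3 members were higher and 1 lower where 11.8% of all genes were higher and 7.90% lower (19.7% together). Cer1 did not pass (0.95, adjusted p = 0.141, 95% interval 0.04 to 1.86). Nodal did not either (-0.33, 95% interval -0.67 to 0.02), but did without sample 1 labelled TCF12 dimer (-0.35, adjusted p = 0.0455). All genes passing then numbered 5828 in place of 2819. The TCF12-labelled and TCF4 libraries differed in 1 member, Lefty2 at 0.38 ± 0.10 (adjusted p = 0.0355), where 2.07% of all genes were higher and 1.17% lower (3.24% together). That count was 0 without any 1 of the TCF4 dimer libraries, without homodimer sample 1 or 2 or without uninduced monomer sample 2. It was 2, 2 and 4 without TCF12-labelled sample 1, 2 and 3, and 2 without TCF3-labelled sample 1. All genes passing ranged from 49 without TCF4 sample 3 (213 and 85 without samples 1 and 2) to 4868 without TCF12-labelled sample 3 (1978 without sample 2), so this comparison rests on single libraries. The intervals of the differences were -0.92 to -0.22 for Nodal, 0.12 to 0.97 for Lefty1, 0.07 to 0.42 for Tdgf1, -0.21 to 0.06 for Foxh1 and -1.90 to 0.49 for Cer1. Nodal passed with DESeq2 (-0.56, adjusted p = 0.0312) and without TCF12-labelled sample 1 (-0.64, adjusted p = 0.0162) and Lefty1 was then at 0.08 (adjusted p = 0.747). Lefty1 passed without TCF12-labelled sample 2 or 3 (0.72 in both, adjusted p = 0.033 and 0.0133). Without sample 3, Nodal (-0.55, adjusted p = 0.0359) and Tdgf1 (0.29, adjusted p = 0.0206) passed too. Between the TCF3 and TCF12 labels 4 members were higher in the TCF3-labelled libraries and 1 was lower, where 9.71% of all genes were higher and 9.06% lower (18.8% together). Lefty2 was higher by 0.84 ± 0.09, Lefty1 by 0.63 ± 0.20 (1.08 ± 0.10 without TCF12-labelled sample 1), Cer1 by 1.66 ± 0.51 and Tdgf1 by 0.28 ± 0.08, and Foxh1 was lower by -0.40 ± 0.07. The Lefty1 call ended without TCF12-labelled sample 2 or 3 (0.47 in both, adjusted p = 0.0867 and 0.0704) or TCF3-labelled sample 2 or 3 (adjusted p = 0.103 and 0.0926), and the Cer1 call without TCF3-labelled sample 2 or TCF12-labelled sample 3 (adjusted p = 0.107 and 0.0545). The Tdgf1 call ended without TCF3-labelled sample 2 or 3 (adjusted p = 0.0673 and 0.0886) and with no filter on low counts (0.0635). With only these groups fitted, Lefty1, Tdgf1 and Foxh1 did not pass (adjusted p = 0.433, 0.374 and 0.142). Cer1 did not pass with DESeq2 (adjusted p = 0.0554). The members passing fell to 2, 3 and 3 without TCF3-labelled sample 2 or 3 or TCF12-labelled sample 3. All genes passing were 2686, and 1750, 1649 and 1455 without TCF3-labelled samples 1, 2 and 3 and 4986 without TCF12-labelled sample 3.

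Of 32 further genes listed for the pathway, 28 were tested, and the most uniform falls were in the activin antagonist follistatin (Fst) and in known target genes. Against the parental line 4 of the 28 rose and 12 fell in the uninduced monomer line, where 10.5% of all tested genes rose and 9.43% fell. In the induced monomer line 2 rose and 8 fell, against 10.8% and 9.22% of all genes, and in the homodimer line 0 and 10, against 4.81% and 4.02%. The counts were 4 and 10 in the TCF3-labelled (16.3% and 12% of all genes), 1 and 10 in the TCF4 (7.18% and 5.67%) and 1 and 13 in the TCF12-labelled group (15.5% and 11.5%). The rises were thus few against the share over all genes or near it. Fst was at 101 ± 12 CPM in parental libraries and at 5.10 to 11.8 CPM as group means elsewhere, with log2 fold changes of -3.09 to -4.30 that passed in all 6 groups. All 8 listed known targets fell in the homodimer, TCF3, TCF4 and TCF12 groups, 7 of 8 in the uninduced and 6 of 8 in the induced monomer group, including Eomes, a T-box factor of the streak and endoderm, at 133 ± 9.4 CPM in parental libraries and 12.3 to 28.1 CPM as group means elsewhere. These targets (T, Mixl1, Eomes, Gsc, Fgf8, Foxa2, Lhx1 and Nanog) are all also on the cell type marker lists. Smad7, an inhibitory SMAD, fell in all 6 groups by small amounts, -0.22 to -0.75 on the log2 scale.

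The receptors and ligand-processing genes changed less. Acvr1b and Acvr2a, which encode activin receptors, passed in none of the 6 comparisons with the parental line, and Acvr2b fell in the uninduced monomer and TCF12-labelled groups, by 0.60 and 0.49. Smad3, a signal-carrying SMAD, rose by 0.79, 0.65 and 0.66 in the TCF3, TCF4 and TCF12 groups. Inhbb, which encodes an activin subunit, rose in the uninduced monomer, induced monomer and TCF3-labelled groups, by 2.27, 2.04 and 1.81, from 0.484 ± 0.37 CPM in the parental line, close to the 3-count floor. Furin, a convertase that can process the Nodal precursor, rose in the same 3 groups by 0.52, 0.35 and 0.31.

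**Figure D4:**
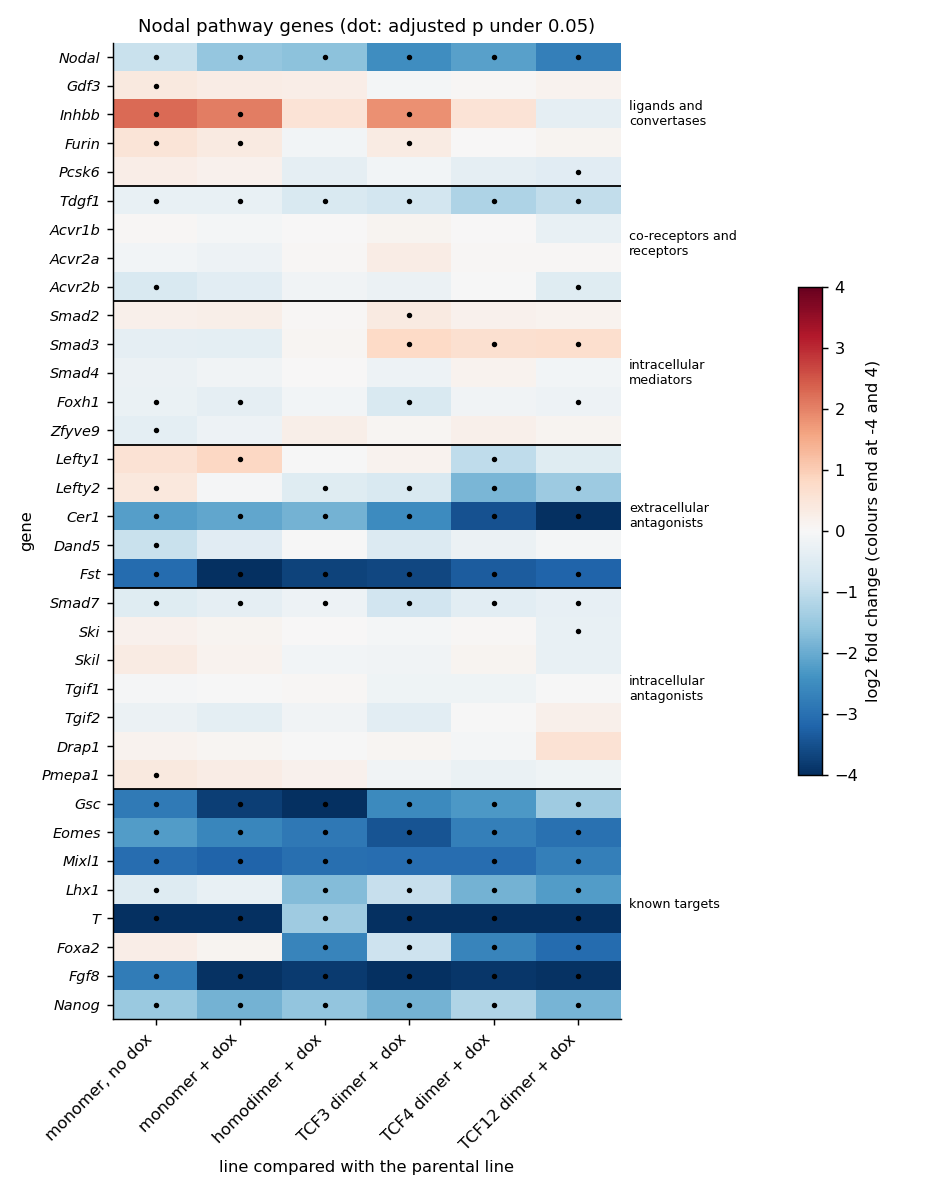
Log2 fold change against the parental line (colour, ending at ±4) of the tested pathway genes (rows) in the 6 other groups (columns), with a dot where the adjusted p is under 0.05. Fst, Eomes, Mixl1 and Fgf8 carry a dot and a fold change below 0 in all 6 columns, and the receptors Acvr1b and Acvr2a carry a dot in no column.

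Genes whose group pattern was among the most like each member's were found among 10605 genes averaging 5 CPM or more, by the root mean square difference of centred log2 group means over the 7 groups. For Nodal these were Nefl (0.17) and Prlr (0.38), where Nodal's own root mean square around its mean was 0.87. Lefty1 was followed by Pla2g1b (0.12), Bnip3 (0.16) and Tfeb (0.18), and Lefty2 by Cnpy1 (0.24) and Apob (0.25). For Tdgf1 they were Tdgf1-ps1 (0.10), its near-identical copy, Relt (0.11) and B3gnt7 (0.13). For Cer1 they were Nefl (0.34), Fzd6 (0.40) and Glrx (0.43), and for Foxh1, whose own value was 0.18, Wdyhv1 (0.04), Zcchc7 (0.05) and Zfp317 (0.05). Among the members themselves Lefty1 and Lefty2 were closest (0.33), then Lefty1 and Tdgf1 (0.36), followed by Nodal and Cer1 (0.39) and Lefty2 and Tdgf1 (0.39). All these distances are over 7 group means from the same libraries.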

How the data were processed

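The data are RNA-seq counts from 21 libraries of day 3 mouse embryoid bodies, with genotype and treatment from the labels setting the groups. The authors deposited a raw count for each gene symbol. FastQC, TopHat2, HTSeq and the builds mm10 and GRCm38 are named in the submitters' processing notes, without settings, so strand use and the treatment of reads shared by similar genes are not given in the sources used here. Dates replaced 25 symbols in 18 libraries but not in the 3 labelled TCF12, so libraries were joined by position, and that handling and the group cannot be told apart. Total counts were 6648842 to 15999693.

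Counts were tested with edgeR 4.0.16 (limma 3.58.1, R 4.3.3) by the quasi-likelihood F-test in a single fit of all 21 libraries, with TMM factors and filterByExpr (count 10, total 15), and Benjamini-Hochberg adjustment over 14311 genes at 0.05. CPM values use TMM-scaled library sizes. Fold change errors are standard errors from the F statistic with 95% intervals. The script was tested on simulated data. Members and lists were chosen with earlier results of these data known, so no count over them is independent support. Members are named in each comparison, other pathway genes where they pass, and for each member the 3 genes closest in group pattern, on log2(CPM + 0.5). Some genes of these rules are not reported here, and the pathway counts leave out such a gene. Alternatives were RLE factors, library sizes alone, DESeq2 1.42.0, other filters on low counts, a fit of only the compared groups, the replicate number as a block, summed Lefty counts and leaving out each library.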

Additional observations from a re-analysis of the deposited data

Results flagged for a closer look

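The results here were picked out because the lines differed from each other by a test of the difference itself, on the log2 scale with edgeR's adjusted p under 0.05 over all tested genes. For the dimer lines against the induced monomer line, the homodimer line differed in Foxh1 (0.24), Lefty1 (-0.82), Lefty2 (-0.42) and Tdgf1 (-0.30). The libraries labelled TCF3 dimer differed in Foxh1 (-0.24), Lefty1 (-0.67), Lefty2 (-0.55), Nodal (-0.94) and Tdgf1 (-0.42). The TCF4 dimer line differed in Cer1 (-1.41), Foxh1 (0.23), Lefty1 (-1.84), Lefty2 (-1.77), Nodal (-0.61) and Tdgf1 (-0.94), and the libraries labelled TCF12 dimer in Cer1 (-2.11), Lefty1 (-1.29), Lefty2 (-1.39), Nodal (-1.18) and Tdgf1 (-0.70).

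The E-protein dimers as a class differed from the homodimer line in Cer1 (-1.52), Foxh1 (-0.19), Lefty2 (-0.81), Nodal (-0.82) and Tdgf1 (-0.39). Between E-protein partners, TCF3 minus TCF4 was -0.47 for Foxh1, 1.17 for Lefty1, 1.22 for Lefty2 and 0.52 for Tdgf1, and TCF12 minus TCF4 was 0.38 for Lefty2. TCF3 minus TCF12 was 1.66 for Cer1, -0.40 for Foxh1, 0.63 for Lefty1, 0.84 for Lefty2 and 0.28 for Tdgf1. Some of these calls, Foxh1 calls among them, did not pass under other settings or with single libraries left out, as given above.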

How the results depend on the processing

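Over 90 values (6 genes in 15 comparisons), RLE factors, the filter of 1 CPM in 3 libraries and the replicate block left every direction and call as it was, and DESeq2 87. Library size only left 83 of the 90 as they were, and no filter on low counts 76. Fitting only the compared groups left 74 of 82, and summing the Lefty counts 19 of 30. The replicate numbers did not pair the libraries (mean correlation of deviations 0.035 over 63 same-numbered pairs, lowest -0.475, against -0.0157 over 126 others), and with the block the genes passing were 0.923 to 1.17 times those without it. The cause of the changes below was not tested. Signs turned for Tdgf1, induced against uninduced monomer, with library size only (0.023), for Lefty1 in the homodimer against parental line without a filter (0.0081) or with only those groups fitted (0.0018), and with Lefty counts summed for Lefty2 in the induced monomer line (0.38), Lefty1 in the TCF3-labelled libraries (-0.24) and Lefty1 in induced against uninduced monomer (-0.10).

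Members passing for TCF12 against TCF4 were 2 with DESeq2, 3 without a filter and 0 with only those groups fitted, 2 for homodimer against monomer without a filter, and 1 for TCF3 against TCF12 with only those groups. All genes passing for TCF12 against TCF4 were 306 with library size only, 950 with DESeq2 and 1443 without a filter. With only the compared groups fitted, genes passing against the parental line were 5029 (uninduced), 5106 (induced monomer), 3113 (homodimer), 6674 (TCF3), 4010 (TCF4) and 824 (TCF12). They were 682 for induced against uninduced, 4813, 5715, 6346 and 1516 for the homodimer, TCF3, TCF4 and TCF12 against the monomer, 1310 for the E-protein dimers against the homodimer, 5660 for TCF3 against TCF4, 0 for TCF12 against TCF4 and 236 for TCF3 against TCF12. In that fit Cer1 was filtered out of 8 comparisons and has no value there.

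Leaving out each library gave 1826 of 1890 values with the same call. Signs turned within -0.036 to 0.067 for Lefty1 in homodimer against parental line, -0.11 to 0.064 for Tdgf1 and -0.13 to 0.45 for Cer1 in induced against uninduced monomer, and -0.19 to 0.04 for Nodal in homodimer against monomer. Genes passing against the parental line ranged over 2022 to 5312, 2192 to 5073, 919 to 2948, 3099 to 6700, 1249 to 4046 and 2590 to 6165 in the order above. They ranged over 173 to 890 for induced against uninduced monomer, 2002 to 4803, 2066 to 5896 and 3070 to 6561 for homodimer, TCF3 and TCF4 against the monomer, 1305 to 4173 for the E-protein dimers against the homodimer, and 1959 to 5828, 49 to 4868 and 1455 to 4986 for TCF3 against TCF4, TCF12 against TCF4 and TCF3 against TCF12. Members passing ranged over 0 to 2 for induced against uninduced monomer, 2 to 4 and 3 to 5 for homodimer and TCF3 against the monomer, 0 to 4 for TCF12 against TCF4 and 2 to 5 for TCF3 against TCF12. The common biological coefficient of variation was 0.12, and 0.0539 without sample 1 labelled TCF12 dimer. Depth limits Cer1, which is at or under 3 counts in all TCF12-labelled libraries.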
